A study of Mus musculus with 2 samples.

Results

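The interleukin genes examined here were those of all probes named Il and a digit on the array, apart from 10 genes left out by name, which were Il22, Il22ra2, Il23r, Il23a, Il12b, Il17a, Il17f, Il1b, Il18 and Il34. They made up 72 of the 24813 named genes and 134 of 56605 probes. Of the 72 genes 29 encode ligands, 36 receptor chains, 5 antagonists or decoys and 2 none of these. The cells came from Peyer's patches, lymphoid tissue in the wall of the small bowel, of C57BL/6 mice with an S100A4-GFP transgene, a fluorescent reporter of the small calcium-binding protein S100A4. Patches were digested with dispase II, collagenase D and DNase I, and the released cells were sorted into an S100A4-positive and an S100A4-negative group, both from transgenic mice. The question was how the expression of the sorted groups differs. There was 1 RNA sample, and so 1 Cy3 array, for each group, and the age, sex and number of mice are not given in the sources used here.

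Interleukins are secreted proteins by which leukocytes and tissue cells direct one another. Most act through a receptor of 2 or more chains, several of which are shared. The common gamma chain, for example, serves the receptors for IL-2, IL-4, IL-7, IL-9, IL-15 and IL-21. Most of these receptors signal through JAK kinases and STAT factors, whereas those of the IL-1 and IL-17 families recruit MyD88 and Act1, respectively. In Peyer's patches, interleukins made by T cells, innate lymphoid cells and phagocytes support germinal centres, IgA switching and the epithelial barrier.

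Since neither group was replicated, no p-value could be given. Differences below are S100A4-positive minus S100A4-negative on the log2 scale after each array was centred on the 75th percentile of its signals, and the error after ± is the scanner software's estimate for a spot. It covers no variation among mice, sorts or labellings. On the negative array 53.3% of 59305 non-control spots passed the software's background test, on the positive array 52.3% did, and none was saturated. The lowest signal well above background was 16.1 and 15.7, respectively, so dimmer probes have only a bound, given as "at least". S100a4 itself read 1057 in negative and 119341 in positive cells, a difference of 7.45 ± 0.20. With the E1A spike-in probes as the reference every difference moved by -2.50, and without any scaling by -0.63, so each direction below is relative to the other genes of the array. The sorted groups differed in markers of cell types: 8 of 8 B cell and 6 of 8 T cell markers were at least 2-fold lower in the positive group, with summed signals, in multiples of the 75th percentile, of 442 against 20.4 and 119 against 16.3. By contrast, 10 of 10 macrophage and monocyte markers (4.23 and 195), 7 of 8 classical dendritic cell markers (6.95 and 92.8) and 8 of 9 innate lymphoid cell markers (10.698 and 150) were at least 2-fold higher. The dendritic cell marker Xcr1 was well above background on neither array. Of epithelial markers 7 of 9 were lower (34.8 and 3.11). The part of these markers' cells in the differences below was not tested, and fewer cells of a type and less RNA per cell cannot be told apart.

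Interleukin genes that differed were mostly higher in the S100A4-positive cells, except on the spike-in scale, where 7 were at least 2-fold higher and 26 lower. That scale moves every gene of the array by -2.50. The share of all genes past 2-fold on it is not given here, so these counts say nothing particular to interleukins. Of the 72 genes, 24 were well above background on neither array, 24 were at least 2-fold higher in the positive group, 7 were at least 2-fold lower and 17 lay within 2-fold or had a bound under it. The background was 21.4% higher and 17.0% lower by 2-fold among the 15245 named genes that either array detected, where 24 and 7 of 48 interleukin genes passed. Being seen on 1 array alone is itself tied to a difference, so the 39 interleukin genes measured on both are given as well: 20 were higher and 4 lower, beside 17.7% and 16.4% of all genes measured on both. Their median difference was 1.06, that of all such genes 0.01. At 4-fold, 19 interleukin genes were higher and 5 lower, where the shares of all genes seen were 9.88% and 4.99%. On the spike-in scale, 15 of the 24 higher genes remained above 0, though Il10 (0.01) and Il17d (0.14) only just. Another 7 fell below 0 and 2, seen on the positive array alone, had a bound of 0. The 7 lower genes stayed below 0, as a downward shift of all genes must leave them, so this is no check of them.

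**Figure D1:**
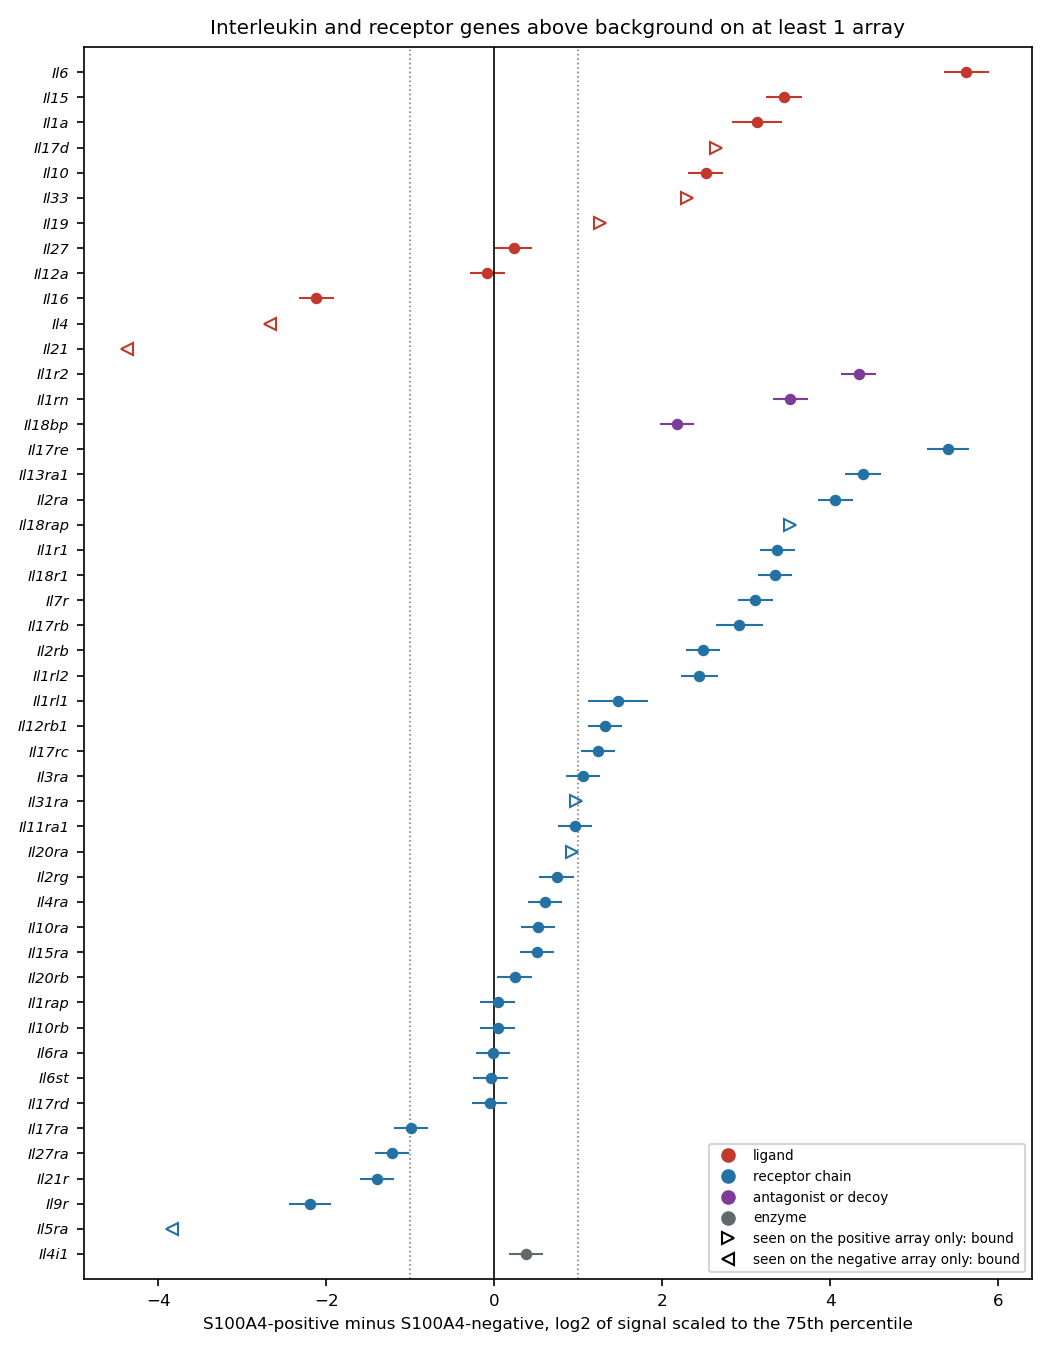
Difference between the S100A4-positive and the S100A4-negative array (log2, x axis) for the 48 interleukin and receptor genes seen on at least 1 array, by role. Points have error bars of the scanner software, open triangles are bounds, dotted lines mark 2-fold; Il6 and Il17re lie farthest to the right and Il21 farthest to the left.

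Many ligand genes were below detection. Of 29 ligand genes, 17 were well above background on neither array, against 4 of 36 receptor genes, so that 41.4% of ligands and 88.9% of receptor chains were seen, where the share of all named genes was 61.4%. Of the 12 ligand genes seen, 7 were higher in the positive group, 3 were lower and 2, Il12a and Il27, lay within 2-fold. Of the 32 receptor genes seen, 14 were higher, 4 were lower and 14 were within 2-fold or had a bound under it. Over genes measured on both arrays the median difference was 2.51 for 7 ligands and 0.85 for 28 receptor chains. That set leaves out the lower ligand genes Il21 and Il4 and the 3 ligand genes seen on the positive array alone. With no filter on dim probes the medians were 0.78 for ligands and 0.76 for receptors. That setting takes in the 17 ligand genes seen on neither array, and its ligand median is the value of Il9, at 5.43 and 6.01. It therefore cannot decide whether the gap between ligands and receptors holds.

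Il6, the gene of a cytokine of the acute-phase response, was higher at both of its probes. Its signal was 27.3 for negative and 863 for positive cells, a 49.1-fold difference (5.62 ± 0.27), and its other probe, seen on the positive array alone, was at least 46.3-fold higher. With normexp background correction the difference was 3.82, below those of Il1r2 (4.27) and Il17re (4.25). Il15, whose product sustains natural killer and memory T cells, read 63.5 and 446, a 10.9-fold difference, with a second probe at 11.0-fold. Il1a, the gene of an alarm cytokine that is released by damaged cells, read 21.7 and 122 (3.13 ± 0.30). Il10, which encodes an anti-inflammatory cytokine, was measured at 153 and 563 (2.51 ± 0.21), but came to 0.01 on the spike-in scale. On the negative array the signals of Il6 and Il1a lay close to the detection limit of 16.1. With normexp the difference was 1.72 for Il1a and 2.55 for Il15.

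A further 3 ligand genes were seen on the positive array alone. Il33, an alarmin gene of stromal and epithelial cells, read 51.1 there and 4.33 on the negative array, at least 4.91-fold higher. Il17d, a less studied member of the IL-17 family, read 64.9 against 14.9 and was at least 6.24-fold higher. The signal of Il19, an IL-10 family cytokine gene, was 24.9 against 3.82, at least 2.39-fold higher. Of 9 fibroblast and stroma markers 5 were higher and 1 was lower, and their part was not tested. On the spike-in scale the bounds of Il33 and Il19 came to 0, and Il19 was under 2-fold with quantile normalization (0.84), normexp background correction (0.78), no scaling (0.62) and in the deposited table (0.84). With normexp Il33 came to 1.16 and Il17d to 1.06.

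Il21 and Il4, cytokine genes of follicular helper T cells that act on germinal centre B cells, were on the opposite side. Il21 read 507 in negative and 3.61 in positive cells, at least 20.8-fold lower in the positive group, but -2.24 on the log2 scale with normexp. Il4 read 155 and 12.2, at least 6.36-fold lower, but under 2-fold with normexp background correction (-0.96). Il16, the gene of a chemoattractant precursor found in lymphocytes, was lower too at 2515 and 373 (-2.12 ± 0.20), with -1.07 at a second probe and at least 1.59-fold in the other direction at another, dim probe. The T cell markers Cd3e, at 8496 and 361, and Cd2, at 14642 and 301, were lower as well, and their part was not tested.

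Il21 was covered by 2 probes of which 1 was seen, and their first 30 bases are shown because the value rests on 1 of them. The first lies at chr3:37121681-37121740 and the second at chr3:37124300-37124359, both on the minus strand of mm9, the build of the array files; their place in exons or introns was not analysed here.
Il21 probe 1: tgtttgtgttcatggcttcttatttaagac
Il21 probe 2: aaatgcatttctttcacttccatgttgtgt
Probe 1 gave the signals above, and probe 2 read 11.8 and 6.27, well above background on neither array.

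**Figure D2:**
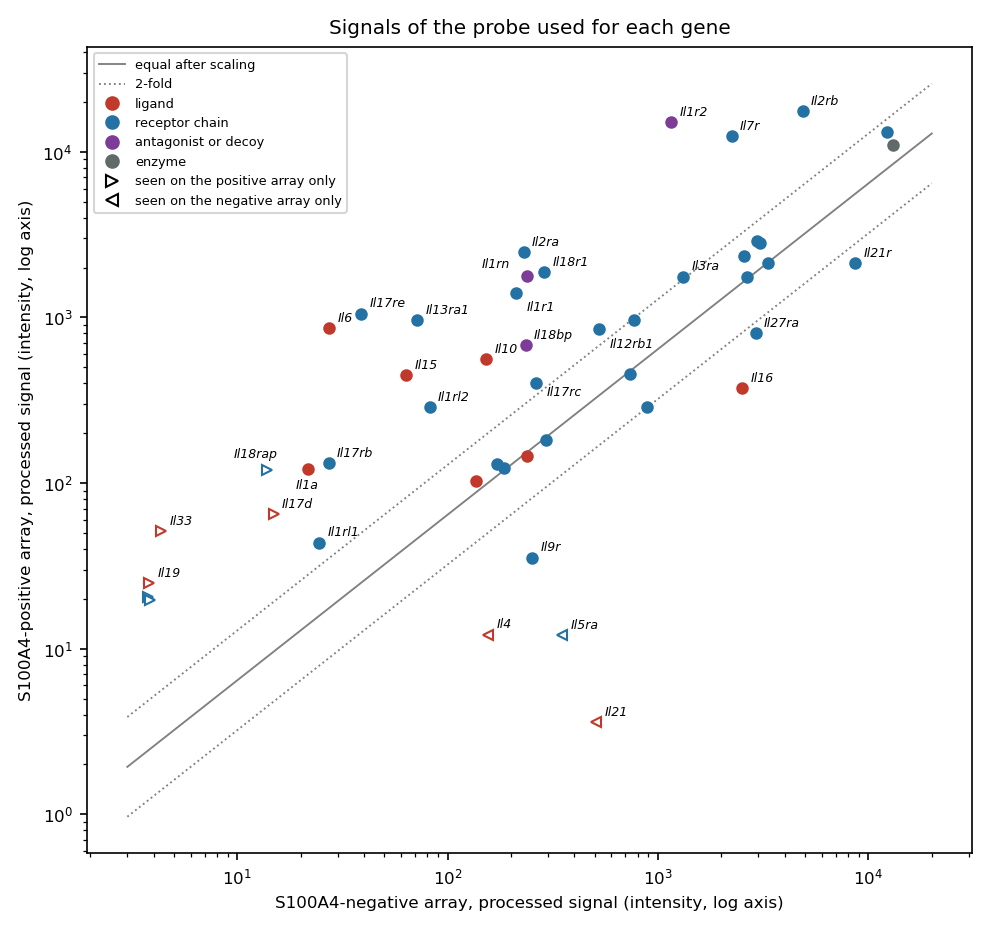
Processed signal on the S100A4-negative (x) and S100A4-positive array (y), both on log axes, of the probe used for each gene, with lines for equality after scaling and for 2-fold. Il1r2, Il7r and Il2rb are among the brightest on the positive array, and Il21, Il5ra and Il4 lie below the line, with positive signals under the detection limit.

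The IL-1 family held the most genes on the higher side. Of its 19 genes 11 were seen, of which 10 were at least 2-fold higher in the positive group, none was lower and the shared accessory chain gene Il1rap lay at 0.04 ± 0.21. On the spike-in scale 6 of the 10 remained above 0, while Il18bp (-0.33), Il1rl1 (-1.03) and Il1rl2 (-0.06) turned below it and Il33 had a bound of 0. Of the 5 antagonist and decoy genes 3 were seen, and these were at least 2-fold higher, 2 of them above 0 on the spike-in scale. Il1r2, the decoy receptor that binds IL-1 without signalling, read 1157 and 15056, a 20.2-fold difference, and 345 and 6338 at a second probe, 28.5-fold. Il1rn, which encodes the IL-1 receptor antagonist, read 239 and 1773 (3.52 ± 0.21), and Il18bp, the gene of a soluble trap for IL-18, read 235 and 683 (2.17 ± 0.21).

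Signalling receptors of the same family were higher too. Il1r1, the signalling IL-1 receptor, read 212 and 1409, a 10.3-fold difference. Both chains of the IL-18 receptor were higher: Il18r1, which binds the cytokine, read 287 and 1873 (3.34 ± 0.20), and Il18rap, its accessory chain, 13.9 and 120, at least 11.5-fold, but 1.74 on the log2 scale with normexp. The IL-36 receptor gene Il1rl2 read 82.0 and 287 (2.44 ± 0.22), but 3.74 and 5.11 at another probe, well above background on neither array. Il1rl1, which encodes the IL-33 receptor ST2, was dim on both arrays at 24.4 and 43.7 (1.47 ± 0.36), and came to 0.91 with normexp background correction and 0.84 with no scaling. None of the genes of the IL-36 ligands (Il1f6, Il1f8 and Il1f9), of the IL-36 antagonist (Il1f5), Il1f10, the neuronal Il1rapl1 and Il1rapl2 or the antisense RNA gene Il1bos was well above background on either array, at signals up to 8.60.

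Chains of the common gamma family were divided by receptor. Il2ra, the chain that gives the IL-2 receptor high affinity, read 230 and 2472, a 16.7-fold difference, and 12.1-fold at a second probe, with a log2 difference of 3.42 with normexp. Il2rb, the chain shared by the receptors for IL-2 and IL-15, read 4864 and 17545 (2.48 ± 0.20), and 2.35 at a second probe, but lay at -0.02 on the spike-in scale. Il7r, the IL-7 receptor chain of naive and memory T cells and innate lymphoid cells, read 2237 and 12419 (3.11 ± 0.20), and 2.48 with the median over its probes. Il2rg, the common gamma chain itself, was bright on both arrays at 12187 and 13107 and within 2-fold (0.74 ± 0.20). Of the innate lymphoid cell markers, Id2 read 1487 and 11816, and its part in these values was not tested.

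Il9r and Il21r lay on the lower side. Il9r read 252 and 35.4 (-2.20 ± 0.25), and at least 3.64-fold lower at its second probe, but under 2-fold with normexp background correction (-0.90). Il21r, the receptor of the follicular cytokine IL-21, was the brightest of these at 8663 and 2120 (-1.40 ± 0.20), while a dimmer probe at 326 and 174 gave -0.27. With the median over its probes Il21r was within 2-fold (-0.84). The B cell marker Ms4a1, at 33700 and 588, was lower as well, and its part was not tested. The ligand genes Il2, Il7 and Il9 were well above background on neither array.

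Il15ra, the chain that presents IL-15 to neighbouring cells, lay within 2-fold at its brightest probe, at 2551 and 2333 (0.50 ± 0.20), whereas its other probes were higher. The first 30 bases of the 3 probes are shown because the call depends on the choice among them. Their positions on the plus strand of mm9 are chr2:11645753-11652254, which spans more than 1 exon, chr2:11654809-11654868 and chr2:11655416-11655475.
Il15ra probe 1: aagtggccatctctacatcggtcctcttgg
Il15ra probe 2: aaaccatggaaacagtaccaatgactgtga
Il15ra probe 3: gacaaaaccaaactcagtgactatatatgt
Probe 1 read 34.8 and 76.1 (1.76), probe 2 read 27.2 and 106 (2.60), and probe 3 is the bright one. Probes of Il6st and Il4ra showed the same order, with the brightest at -0.05 and 0.60. The dimmer ones of Il6st lay at 1.17 (signals 37.7 and 54.4) and 1.72 (19.5 and 41.4). That of Il4ra lay at 1.50 (53.3 and 97.2). Of 23 genes with more than 1 probe seen, 9 had probes on both sides of 0 or more than 1 apart. Probes well above background on neither array are left out of this count. Among the higher genes, Il18rap, Il33, Il19, Il1rl1, Il1rl2, Il17rb and Il17rc also had such unseen probes. The 9 genes with discordant probes were, besides Il15ra, Il6st, Il16 and Il21r, Il15, with a dim probe at least 3.54-fold higher, and Il7r, with one at least 3.59-fold higher. The others were Il6ra (-0.02 and 0.45), Il17rd (-0.06 and 0.03, the latter dim) and Il1rap, with 1 dim probe seen on the positive and 1 on the negative array alone.

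**Figure D3:**
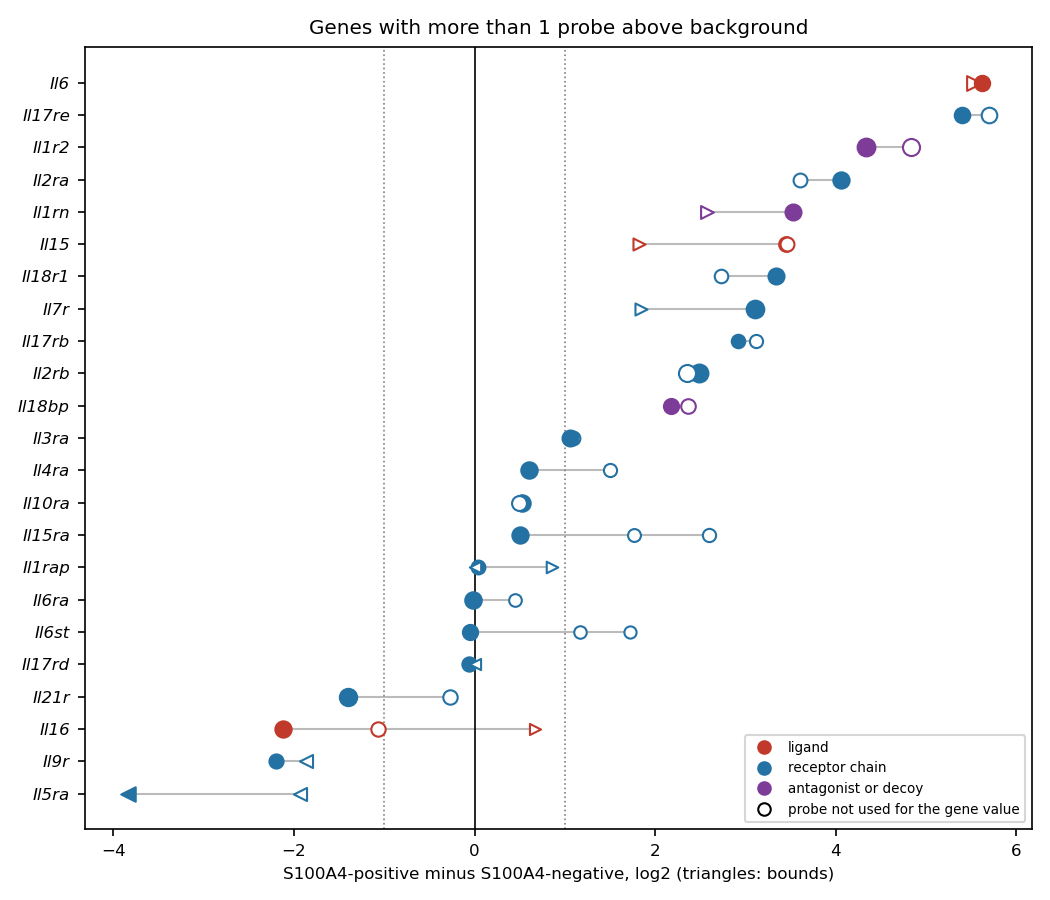
Difference (log2, x axis) at each probe seen, for the 23 genes with more than 1 such probe. Filled symbols are the probes used, larger symbols are brighter probes and triangles are bounds; Il6, Il17re, Il1r2 and Il2ra have all probes above 3, while Il15ra, Il6st, Il4ra and Il16 have probes on both sides of a 2-fold line.

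Receptor genes of the IL-17 family differed from one another. Il17re, the chain that pairs with Il17ra to bind IL-17C, read 38.7 and 1053, a 42.3-fold difference (5.40 ± 0.25), and 34.7 and 1158 at an adjacent probe, 51.8-fold. Il17rb, a chain of the IL-25 receptor, read 27.2 and 132 (2.92 ± 0.28), with 3.12 at a second probe. On the negative array Il17rb, like Il6, lay close to the detection limit of 16.1, and both Il17re probes were dim. With normexp Il17re came to 4.25 and Il17rb to 1.71. Il17rc, which binds IL-17A and IL-17F with Il17ra, read 263 and 399 (1.24 ± 0.21), but 0.60 with no scaling and -1.27 on the spike-in scale. Il17ra, the chain common to these receptors, was 1.99-fold lower at 885 and 286, and Il17rd, an orphan chain, lay at -0.06 ± 0.21. The ligand genes Il17b, Il17c and Il25 were well above background on neither array, with signals of 3.93 and 8.69 for Il17c.

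Receptor genes for type 2 cytokines went different ways. Il13ra1, which forms the type II receptor for IL-4 and IL-13 on non-lymphoid and myeloid cells, read 71.4 and 966, a 21.0-fold difference (4.39 ± 0.21). Its partner Il4ra, at 2960 and 2898, was within 2-fold (0.60 ± 0.20). Il5ra, the IL-5 receptor chain of eosinophils and some B cells, read 350 and 12.1, at least 14.3-fold lower, and 93.0 and 3.37 at a second probe, at least 3.81-fold lower. Its difference was -1.79 with normexp and -2.89 with the median over probes, and that of Il13ra1 was 3.43 with normexp. Il3ra, the IL-3 receptor chain, read 1315 and 1762 (1.06 ± 0.20), 0.42 with no scaling and -1.45 on the spike-in scale. The eosinophil markers Prg2, at 2126 and 223, and Ccr3, at least 3.28-fold lower, were lower as well, while Ear1 and Ear2 were higher and Epx was not seen on either array; their part was not tested. Il3, Il5, Il13 and the decoy gene Il13ra2 were not well above background on either array. Il4i1, an amino acid oxidase gene induced by IL-4, was bright on both arrays and within 2-fold at 13142 and 11009 (0.38 ± 0.20).

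Most receptor genes for IL-6, IL-10 and their relatives were within 2-fold. Il6ra, at 3325 and 2116 (-0.02 ± 0.20), and Il6st, the signal transducer gp130, at 733 and 458 (-0.05 ± 0.20), were within 2-fold, in contrast with the 49.1-fold difference of Il6. The IL-10 receptor chains Il10ra (0.52) and Il10rb (0.04) were within 2-fold as well, beside 5.71-fold for Il10. Il12rb1, the chain shared by the receptors for IL-12 and IL-23, read 526 and 847 (1.32 ± 0.20), 0.69 with no scaling and -1.18 on the spike-in scale. Il27ra, the IL-27 receptor chain, was lower at 2913 and 807 (-1.22 ± 0.20). Il11ra1 (0.96), Il20rb (0.24), Il12a (-0.08) and Il27 (0.23) were within 2-fold, and Il31ra and Il20ra, seen on the positive array alone, were at least 1.97-fold and 1.90-fold higher. Il11, Il20, Il24, Il31, Il12rb2 and Il22ra1 were well above background on neither array.

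**Figure D4:**
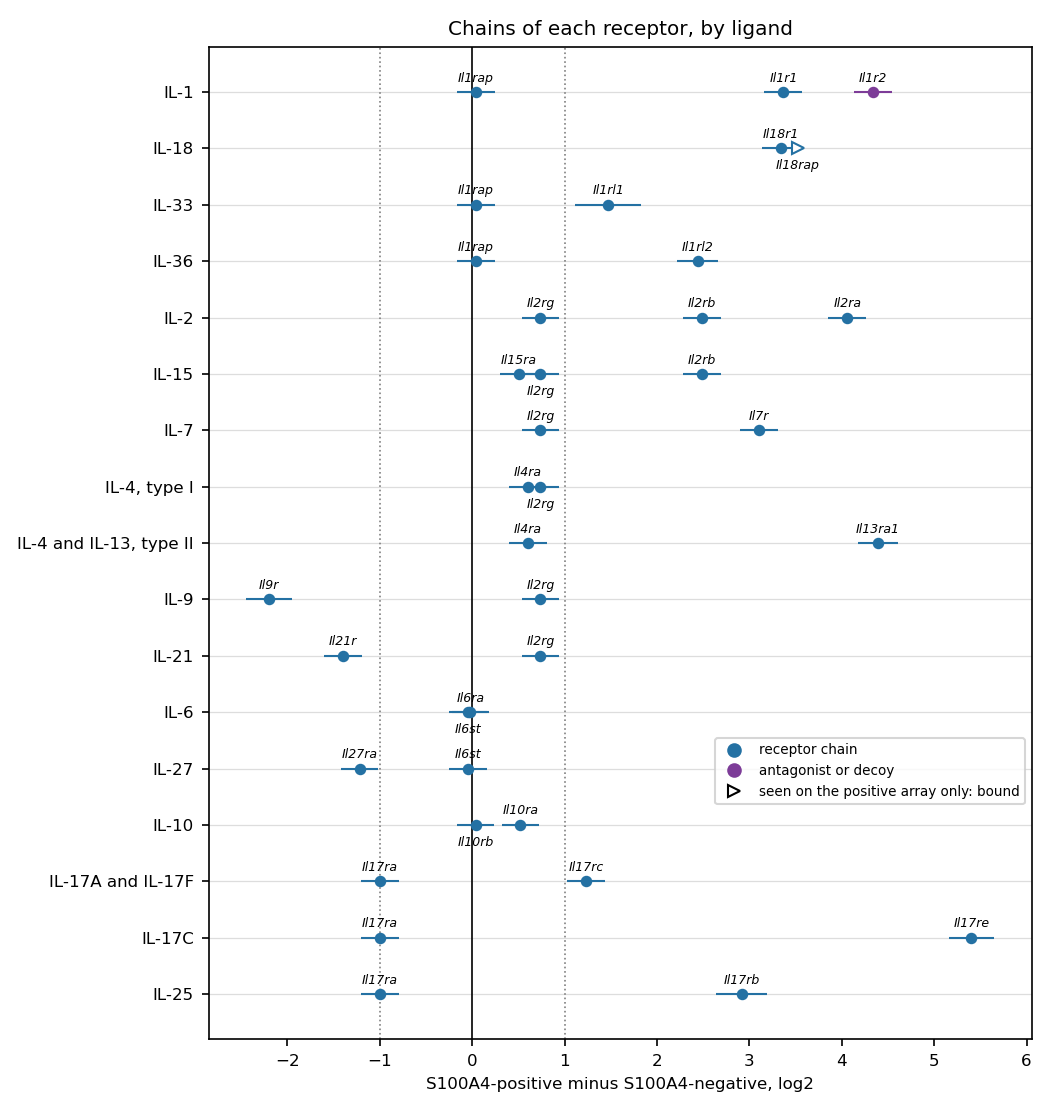
Difference (log2, x axis) of the chains of 17 receptors, arranged by ligand, with error bars of the scanner software. In the receptors for IL-17C, IL-25, IL-7, IL-1 and the type II receptor the chain that is not shared lies at 2.92 or above and the shared one within 2-fold, while both IL-18 receptor chains lie above 3.

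Upstream sequences of 3 of the 5 genes with the largest differences measured on both arrays are shown, Il6 and Il1r2 because they hold matches to motifs of inflammatory transcription factors and Il17re because it holds none. They are the 250 bases before the RefSeq start on GRCm38.p6, at chr5:30012864-30013113, chr1:40085843-40086092 and chr6:113458521-113458770, all on the plus strand, with matches in capitals.
Il6: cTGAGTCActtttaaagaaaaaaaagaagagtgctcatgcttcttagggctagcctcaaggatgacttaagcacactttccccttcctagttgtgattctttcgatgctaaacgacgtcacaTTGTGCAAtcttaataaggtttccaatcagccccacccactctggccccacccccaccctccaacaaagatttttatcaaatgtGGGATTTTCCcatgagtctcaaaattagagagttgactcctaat
Il1r2: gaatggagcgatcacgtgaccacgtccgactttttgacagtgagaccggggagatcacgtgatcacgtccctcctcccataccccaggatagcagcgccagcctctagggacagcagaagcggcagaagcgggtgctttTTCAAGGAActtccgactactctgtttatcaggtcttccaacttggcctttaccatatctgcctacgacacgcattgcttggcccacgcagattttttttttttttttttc
Il17re: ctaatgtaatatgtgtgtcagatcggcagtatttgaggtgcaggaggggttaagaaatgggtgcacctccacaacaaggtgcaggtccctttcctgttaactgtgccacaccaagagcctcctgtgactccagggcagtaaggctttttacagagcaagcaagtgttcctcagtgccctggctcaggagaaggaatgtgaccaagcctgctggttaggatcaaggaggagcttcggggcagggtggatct
The motifs searched on both strands were TGANTCA (AP-1), TTCNNNGAA (STAT), TTGCNNAA (C/EBP), an NF-kB motif and AGGTCA (a nuclear receptor half-site), and no matches overlapped in these windows. Il6 held TGAGTCA starting 249 bases, a C/EBP match starting 128 bases and GGGATTTTCC starting 44 bases before the start, and Il1r2 held TTCAAGGAA starting 111 bases before it. Il13ra1 and Il2ra held no match. Of the 32851 windows in the table, 6.75% held the AP-1, 7.02% the STAT, 9.56% the C/EBP, 1.41% the NF-kB and 14.0% the half-site letters. Of the 27 windows of 20 higher genes, 4, 4, 8, 3 and 2 held these letters (14.8%, 14.8%, 29.6%, 11.1% and 7.41%). Of the 9 windows of 6 lower genes, 2, 0, 2, 1 and 2 held them. A match is a description of the letters and not of a factor's binding.

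Few genes of the JAK and STAT lists passed 2-fold. Over all genes seen, 21.4% were higher and 17.0% lower by 2-fold, and lists this short with 1 or 2 such genes do not stand apart from those shares. None of 7 STAT genes and 1 of 4 JAK genes, Jak2 (1.12 ± 0.20), differed by 2-fold. Of 8 SOCS genes, which encode feedback inhibitors of cytokine signalling, 2 were higher, Cish at 596 and 3412 (3.15 ± 0.20) and Socs2 at 147 and 752 (2.99 ± 0.21). Of 8 genes of IL-1 signalling only Irak3, an inhibitory kinase homologue, passed 2-fold, lower at 723 and 80.8 (-2.53 ± 0.22). In the IL-17 pathway list 6 of 7 genes were higher and 1, the adaptor gene Traf3ip2 (Act1), was lower (-1.18). The higher ones included Cebpd (4.36 ± 0.21), Nfkbiz (1.97), Zc3h12a (1.59) and Tnfaip3 (1.58), which other inflammatory signals also induce. The spike-in shift of -2.50 takes the higher genes of this list other than Cebpd below 0, and Jak2 too.

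Of 14 partner genes with other names, 11 were seen, of which 7 were higher and 1 was lower. The receptor genes Csf2rb, the beta chain shared by IL-3, IL-5 and GM-CSF, and Csf2rb2, an IL-3-specific beta chain, read 848 and 11889 (4.44 ± 0.20) and 209 and 7383 (5.77 ± 0.21), and both are uncertain because the 2 genes are close in sequence. The gene of GM-CSF, Csf2, stood at 7.85 ± 0.32 and that of the IL-6 relative oncostatin M, Osm, at 2.41 ± 0.20. Osm falls just short of the spike-in shift. Ifnlr1, the interferon lambda receptor chain, was the lower one (-1.90 ± 0.22). Tslp, Osmr and Cntfr were well above background on neither array.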

How the data were processed

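Per the labels' protocols, total RNA was isolated with ISOGEN, amplified with a low-input Agilent kit and labelled with Cy3. The authors scanned both arrays of Agilent design 74809 on 1 slide, and the software was Feature Extraction 10.7.1.1, per the file headers, but 9.5.1.1 per the submitters' processing notes. Deposited scanner files hold processed signal intensity, background-subtracted and detrended within the array, with no normalization between arrays, and flag columns, another kind of deposited value. The deposited value table of the series has 1 intensity per probe, on a linear scale rather than as centred log2 values. Both column medians are 19.6, so the arrays share a median there. Its correlations with the log2 scanner values were 0.9999 and 0.9998, and the sources used here do not say how it was made.

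Outlier spots (138 and 80) and control spots were removed, and log2 signals were centred on each array's 75th percentile (445.9 and 287.3). A gene took its probe with the highest mean among its detected probes, those the software marks as well above background on either array. Where a probe was not well above background on 1 array, the difference is a bound against the higher of its own signal and the lowest signal well above background. All genes were named through RefSeq accessions, symbols and synonyms of a gene table (GRCm38.p6); all 134 interleukin probes had the same name there, and 58 of 72 genes had an upstream window. The error is the software's for a spot, and the number of arrays limits the precision; over 271 replicated probes the spots' median standard deviation was 0.10 and 0.04. No test was possible with 1 array per group, so a fixed 2-fold size was used. Named were S100a4, members at least 2-fold apart, members with discordant probes and up to 4 pathway genes each way per list. Single markers of the cell type lists were named as examples, and more of them for eosinophils. The members and lists were chosen with earlier results of these data known. Alternatives used limma 3.58.1 in R 4.3.3 (normexp with an offset of 50, quantile), other scalings, filters, probe choices and the deposited table; other steps ran in Python 3.11.15 and were tested on simulated data.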

Additional observations from a re-analysis of the deposited data

How the results depend on the processing

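No paired analysis was possible because each group has 1 array, and no replicate could be left out. The counts of 24 higher and 7 lower genes stayed within 1.5 times under normexp, quantile normalization, the 75th percentile over probes seen on both arrays, no scaling, the deposited table, no filter, medians over probes and measured differences in place of bounds. They moved to 7 higher and 26 lower on the spike-in scale, which shifts all genes of the array downward alike. With genes seen on both arrays only (fewer genes) 4 were lower. With each probe counted 42 were higher, but of 76 probes in place of 48 genes. With no filter 32 were higher, but of 72 genes, which include those at background on both arrays. Taking bounds for genes that 1 array alone detected, the ligand median was 1.78 and the receptor median 0.94. The ligand median became 0.92 with normexp, 1.38 with quantile normalization, 1.14 with no scaling, 1.39 in the deposited table, 2.51 with genes seen on both arrays, 0.78 with no filter, 2.64 with measured differences and 0 on the spike-in scale. The receptor median became 0.67 with normexp, 0.55 with quantile normalization, 0.31 with no scaling, 0.56 in the deposited table and -1.50 on the spike-in scale. With no filter the receptor median was 0.76, near the ligand value, but that setting takes in genes at background on both arrays. Reversed on the spike-in scale were Il12rb1 (-1.18), Il17rc (-1.27), Il18bp (-0.33), Il1rl1 (-1.03), Il1rl2 (-0.065), Il2rb (-0.019) and Il3ra (-1.45), as a shift of all genes makes them. Otherwise the cause was not tested. Signals near 16 limit what can be seen of dim ligands.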
